A study of Caenorhabditis briggsae with 10 samples.

Results

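The cold response of HK104, a wild-type strain of temperate origin of the nematode Caenorhabditis briggsae, was described across genes. HK104 worms held at 4 °C for 60 hours gave 2 RNA-seq libraries, cold 1 and cold 2. HK104 worms collected without cold gave the 2 control libraries, control 1 and control 2, so that 4 of the 10 samples in the series were compared. Both groups were whole worms that had been synchronised, brought to the mid/late L4 stage of larval life and grown on for 24 hours at 20 °C. The controls were taken at the start of the cold period and not after 60 hours without cold, so cold and elapsed time cannot be told apart. The labels do not say whether the libraries of a group came from separate cultures, and the p-values measure the spread between libraries as pooled in the model below. The members were the 13503 of 23175 WormBase gene identifiers that passed a filter on low counts over the 8 libraries of HK104 and AF16. AF16 is a strain of tropical origin that was treated in the same way and entered the same statistical model. For each gene this model gave all groups of both strains the same spread, drawn towards that of genes of similar level. The HK104 cold libraries differed more than the controls, as given below, which the shared spread does not take up.

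C. briggsae is a close relative of C. elegans, and wild isolates fall into tropical and temperate lineages. Nematodes take on the temperature of their surroundings, and at temperatures near freezing growth and egg laying stop in C. elegans. In that species the known adjustments to cold include a change in the fatty acids of membranes. The identifiers could not be paired with gene names (0 matched the gene table at hand), so no gene function is given and tissue markers were not checked.

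The HK104 libraries held 15753393 (cold 1), 15889837 (cold 2), 17635870 (control 1) and 17291712 (control 2) counts over all genes. At least 10 counts in both libraries of a group were found for 10774 genes after cold and 11995 genes in controls, with 10514 genes in both groups, 260 after cold only and 1481 in controls only. The cold libraries were the less deeply sequenced ones. In all 8 libraries the tested genes held at least 99.9% of the counts. Levels are given in CPM, the count relative to a library size that was adjusted between libraries with edgeR's default TMM factors. They are not divided by gene length, so the order of 2 genes by CPM is an order of counts.

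After cold, 613 genes were higher and 2239 lower than in HK104 controls at a false discovery rate (FDR) below 0.05, by the quasi-likelihood test of edgeR with Benjamini-Hochberg adjustment. These 2852 genes were 21.1% of those tested, with 4.54% higher and 16.6% lower. Over all tested genes the median of the log2 fold change was 0.01, and 48.7% of genes had a value below 0. The scaling between libraries sets this centre near 0. In RNA of whole worms, fewer cells of a type and less RNA per cell cannot be told apart. Upper-quartile scaling moved this centre to -0.16, and gave 336 higher and 2497 lower genes. Lower genes outnumbered higher ones under all 4 scalings and without each of the 8 libraries, while the number of higher genes depended on single libraries. It was 210 without control 1, 191 without control 2, 216 without cold 1 and 593 without cold 2. The number of lower genes was 1558, 1485, 1822 and 1415 in the same order, and the total was 1768, 1676, 2038 and 2008. In these fits the single library of the reduced group was assumed to vary like the other groups. Without an AF16 cold library, which enters through the shared spread, the filter and the scaling, the higher genes numbered 1372 (AF16 cold 1 left out) or 1120 (AF16 cold 2 left out).

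Over all called genes together, the falls were larger than the rises. Over the 613 rises the median of the log2 fold change was 1.22, and over the 2239 falls it was -2.23. By mean HK104 level, the medians of rises and falls were 3.76 and -3.23 below 1 CPM, the reverse order. They were 1.90 and -2.23 at 1 to 10 CPM and 1.0 and -1.73 at 10 to 100 CPM. At 100 to 1000 CPM they were 0.82 and -1.56, and at 1000 CPM and above 0.79 (1 gene) and -1.87. Below 10 CPM a call took a larger estimate, since precision was lower. Where every library of a group held at most 3 counts, a fold change was computed against 3 counts per library and is a lower bound. With such genes at their bound the medians over all rises and all falls were 1.22 and -2.11. On this scale a change of at least 2-fold was found for 381 of the 613 higher genes (62.2%) and 2138 of the 2239 lower genes (95.5%). At least 8-fold changes were found for 84 higher (13.7%) and 466 lower genes (20.8%), and at least 32-fold changes for 19 (3.10%) and 33 (1.47%). Falls outnumbered rises at each of these sizes. The shares at 32-fold depended on the bound. By the estimates without it, changes of at least 32-fold were found for 37 higher (6.04%) and 120 lower genes (5.36%). A direct test against a 2-fold change (glmTreat of edgeR, FDR below 0.05) was passed by 162 higher and 1127 lower genes, 9.55% of those tested. The number of higher genes in this test was 98 without cold 1, and the number of lower genes was 605 without cold 2. Of the calls with an estimate of at least 2-fold, the 381 higher genes became 210 without control 1, 191 without control 2 and 184 without cold 1, and the 2144 lower genes by estimate became 1400 without cold 2.

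**Figure D1:**
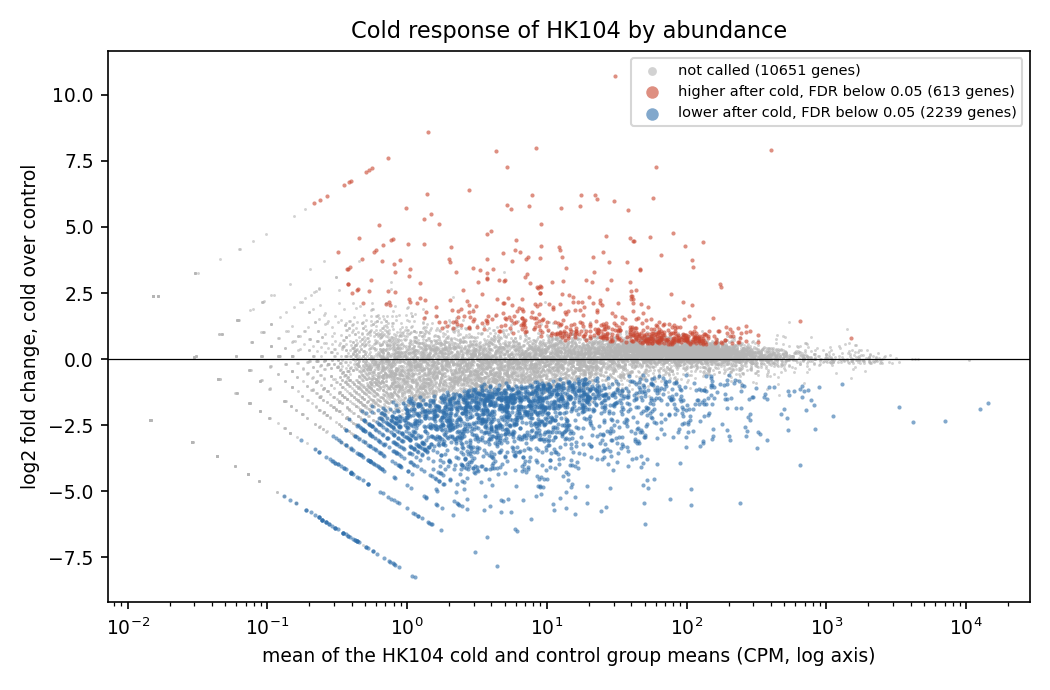
Each point is a tested gene; the x axis gives the mean of its HK104 cold and control levels (CPM, log axis) and the y axis the log2 fold change of cold over control. The 613 higher and 2239 lower genes at an FDR below 0.05 are coloured; 109 genes with 0 counts in the HK104 libraries are not drawn, and values near the left edge rest on very few counts.

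The genes with the largest rises had low levels in controls. WBGene00270616 had 75.0 and 48.1 CPM in the cold libraries, against 0 and 0.0584 CPM in the controls, where it had 0 and 1 counts. Its level was at least 352-fold higher after cold (FDR = 4.59e-05, edgeR), the largest rise under the rule for named genes. WBGene00042194 had 909 and 684 CPM after cold, against 3.66 and 2.98 CPM in controls. With a log2 fold change of 7.90 ± 0.31 (SE) and an FDR of 2.03e-06 (edgeR) it had the smallest p-value of all genes, and its cold level was the highest among the 10 largest rises. WBGene00035686 had 118 and 121 CPM after cold, against 0.756 and 0.759 CPM in controls, a log2 fold change of 7.28 ± 0.40 (SE; FDR = 1.11e-05, edgeR). Both libraries of each group were close together at this gene.

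The other 7 of the 10 largest rises started below 2 CPM in every control library. WBGene00036302 had 120 and 105 CPM in the cold libraries and 1.98 and 1.28 CPM in the controls. WBGene00024306 had 49.2 and 40.2 CPM after cold and 0.930 and 0.408 CPM in controls, and WBGene00024305 had 16.9 and 16.3 CPM after cold and 0 and 0.117 CPM in controls. In all of these the cold and control libraries were far apart, since the rule for choosing them required libraries without overlap and took the largest changes. WBGene00035691 had 40.6 and 45.9 CPM in the cold libraries, against 0.698 and 0.467 CPM in the controls. WBGene00030400 had 40.7 and 28.6 CPM after cold, against 0.291 and 0.642 CPM in controls, and WBGene00032998 had 20.1 and 10.8 CPM, against 0.116 and 0.292 CPM. WBGene00088044 was the weakest of them in level, with 10.6 and 9.90 CPM after cold and 0.116 and 0 CPM in controls. Among these 7 genes the FDR (edgeR) was 0.000134 or lower.

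The largest falls led to low levels, at 25 counts or fewer in each cold library. WBGene00039503 had 1.35 and 1.25 CPM in the cold libraries, against 101 and 97.3 CPM in the controls. This is a log2 fold change of -6.24 ± 0.58 (SE; FDR = 7.57e-05, edgeR), from the highest control level among the 10 largest falls. WBGene00026214 had 3 and 1 counts in the cold libraries and 200 and 212 counts in the controls, and was at least 62.9-fold lower (FDR = 2.68e-05, edgeR). WBGene00036945 had 0 and 4 counts after cold, against 194 and 207 counts in controls. WBGene00039724 had 1.53 and 0.594 CPM after cold and 56.5 and 47.4 CPM in controls, and WBGene00303395 had 0.611 and 1.19 CPM after cold and 47.7 and 48.7 CPM in controls. The controls agreed closely at these genes, whereas the cold values differed by up to several fold at counts of 25 or fewer. The other 5 (WBGene00087435, WBGene00031137, WBGene00041819, WBGene00031502 and WBGene00027099) had between 0.066 and 0.856 CPM in the cold libraries and between 8.96 and 33.3 CPM in the controls. All 10 rises and all 10 falls passed the FDR under each alternative in which they were tested. They were chosen as the largest changes among the calls in the same libraries, so this adds little.

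**Figure D2:**
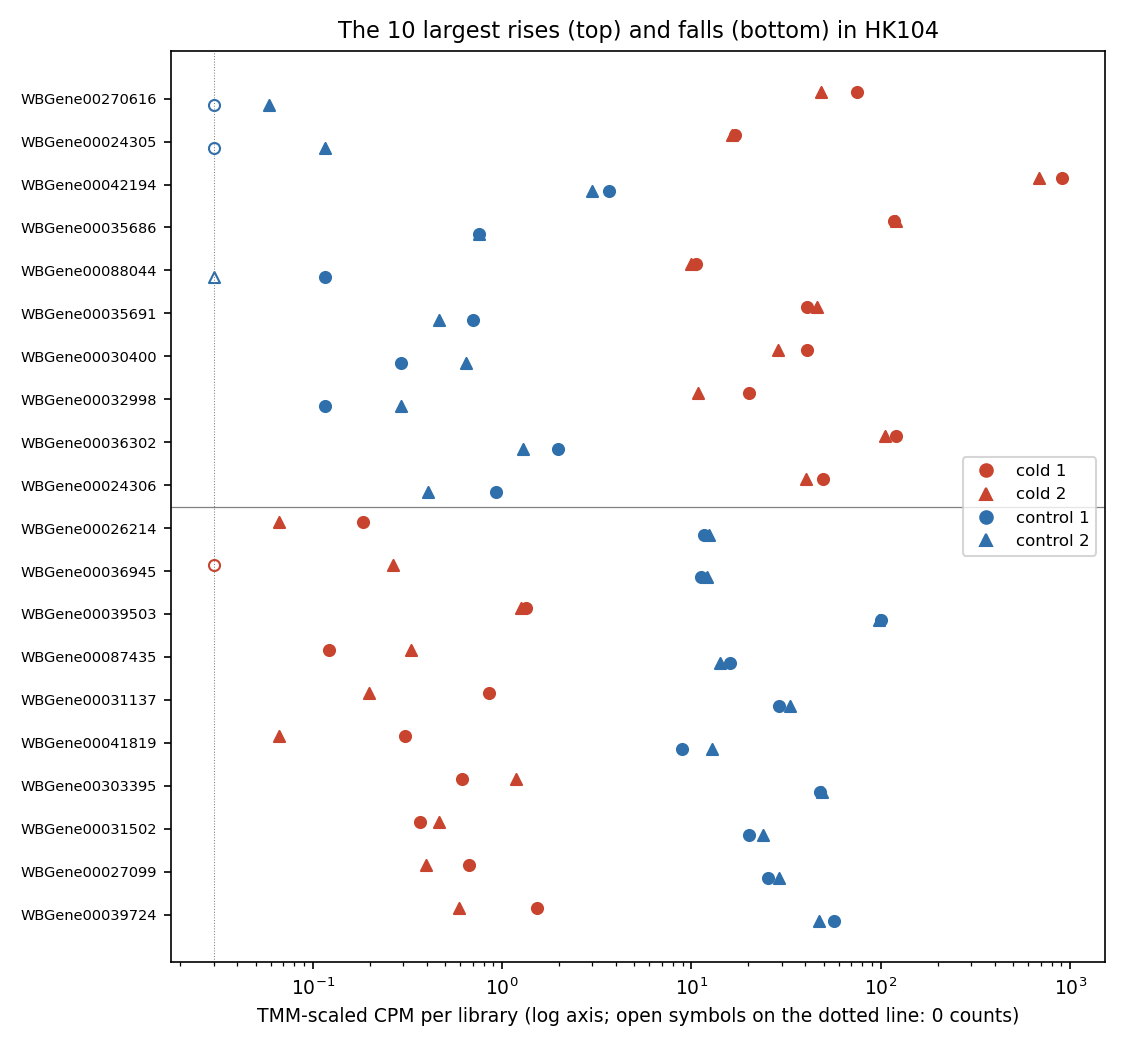
TMM-scaled level (CPM, log axis) of each of the 4 HK104 libraries at the 10 genes with the largest rises and the 10 with the largest falls; red is cold, blue is control, circles are replicate 1 and triangles replicate 2. Cold and control libraries do not overlap at any of these genes, which the rule for choosing them required.

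Counts at or near 0 in one group only were found more often on the cold side. In 257 lower genes both cold libraries held at most 3 counts, and in 55 of them both held 0. In 47 higher genes both control libraries held at most 3 counts, and in 11 both held 0. These were mostly genes of low level on the other side as well, with a median of 1.12 CPM after cold for the 47 and 1.05 CPM in controls for the 257. At least 10 CPM on the other side was reached by 4 of the 47 (WBGene00270616, WBGene00024305, WBGene00088044 and WBGene00027798) and by WBGene00026214 alone of the 257. Over all tested genes, called or not, both cold libraries held at most 3 counts at 730 genes and both controls at 386. Both numbers include 273 genes with at most 3 counts in each of the 4 HK104 libraries, which allow no fold change here. Genes with so few counts in a group passed the filter only through other libraries of HK104 or AF16.

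Genes with strong falls also included highly expressed ones. WBGene00035751 had 11.8 and 9.76 CPM in the cold libraries, against 452 and 491 CPM in the controls. Its log2 fold change of -5.45 ± 0.26 (SE; FDR = 7.21e-06, edgeR) had the second smallest p-value of the comparison. WBGene00042701 had 7.28 and 6.47 CPM after cold and 200 and 214 CPM in controls, and WBGene00031525 had 3.61 and 3.36 CPM after cold and 109 and 95.5 CPM in controls. In these genes the replicates of both groups lay close together, and the FDR (edgeR) was 1.09e-05 for both WBGene00042701 and WBGene00031525.

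The response was then read by abundance, with the tested genes divided by the mean of their HK104 cold and control levels. The share of called genes was highest, at 32.9%, among the 4168 genes of 1 to 10 CPM, of which 154 were higher and 1217 lower after cold. It was 14.8% in the 2290 genes below 1 CPM (40 higher, 300 lower) and 20.9% in the 4503 genes of 10 to 100 CPM (332 higher, 607 lower). Among the 2411 genes of 100 to 1000 CPM it was 8.05% (86 higher, 108 lower), and among the 131 genes of 1000 CPM and above 6.11% (1 higher, 7 lower), beside 21.1% over all tested genes. Lower genes were thus 88.2% and 88.8% of the calls in the lowest classes, 64.6% and 55.7% at 10 to 100 and 100 to 1000 CPM, and 87.5% of the 8 calls at 1000 CPM and above. The share called in a class also depends on its precision, which differed little above 10 CPM (median SE of 0.23 to 0.26) and was lower below it (median SE of 0.75 below 1 CPM and 0.41 at 1 to 10 CPM). The share called below 1 CPM was 5.55% without cold 1, 5.59% without cold 2, 7.0% without control 1 and 5.33% without control 2. At 1 to 10 CPM it was 21.6% without control 2, at 10 to 100 CPM 12.4% and 12.1% without control 1 and control 2, and at 100 to 1000 CPM 4.98%, 3.82% and 3.53% without cold 1, control 1 and control 2.

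The typical fold change shifted with abundance as well. The median log2 fold change was -0.62 below 1 CPM and -0.57 at 1 to 10 CPM. It was 0.19 at 10 to 100 CPM, 0.19 at 100 to 1000 CPM and -0.01 at 1000 CPM and above. With genes at their bound, and without the 273 genes at 3 counts or fewer throughout, the lowest class had a median of -0.61. Less abundant genes were therefore shifted down relative to the median of 0.01 over all genes, and genes of 10 to 1000 CPM slightly up. Under upper-quartile scaling the medians of the classes from 10 to 1000 CPM were 0.01, still above the median of -0.16 over all genes on that scale. The AF16 libraries enter the HK104 fold changes through the filter, the scaling and the shared spread. Classes drawn from them gave -0.58, -0.54, 0.18, 0.17 and -0.01 from the lowest to the highest class. With the HK104 libraries alone, where 12337 genes were tested, the median over all genes was -0.08. When the classes came from the HK104 controls or cold libraries alone, the median below 1 CPM was -0.18 (from controls) and -1.21 (from cold libraries), and 29.7% of the class was called in the second case. Without cold 1 the median was -1.05 below 1 CPM and -0.87 at 1 to 10 CPM, and without cold 2 it was 0.11 at 10 to 100 CPM and 0.10 at 100 to 1000 CPM. The size of the shift in the lowest class therefore depended on how the class was drawn. These medians of the class were all below 0. The SD of its median between replicate libraries, cold and control combined, was 0.213 for the class as first drawn. The -0.18 from controls is smaller than this, so a constant direction is not shown.

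**Figure D3:**
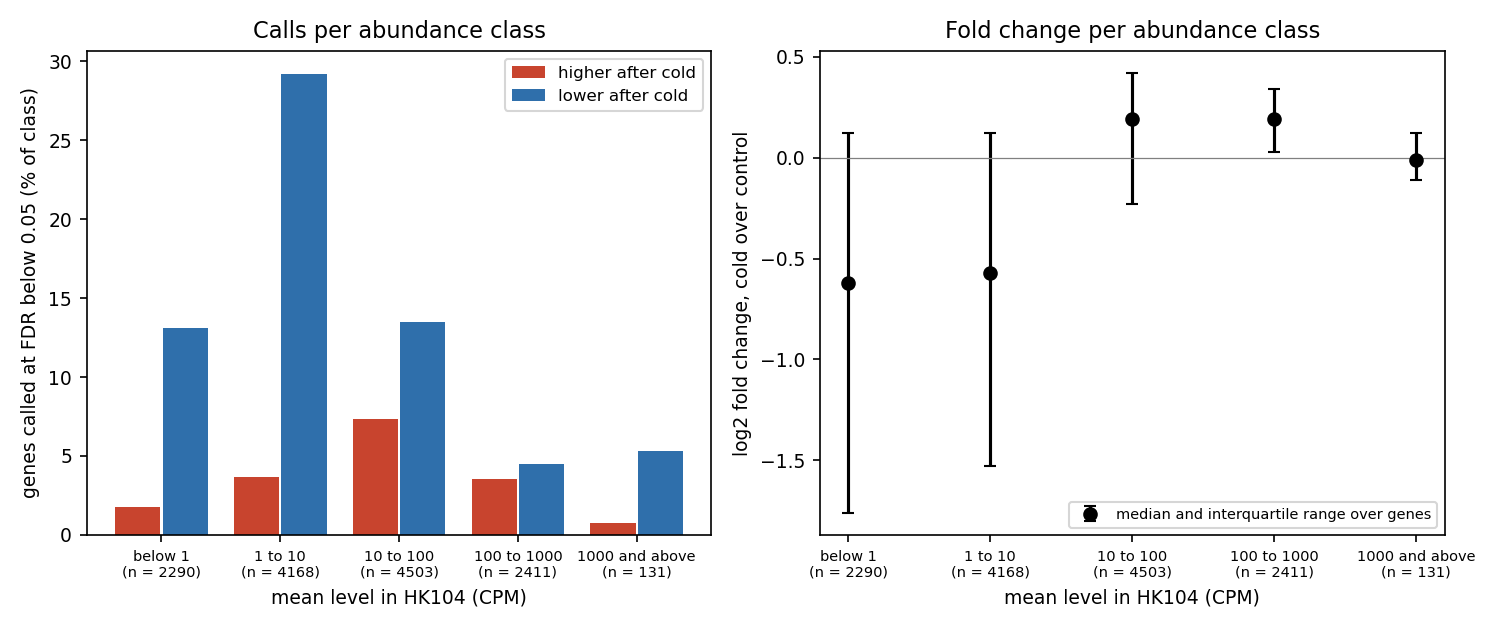
The left panel gives the share of genes called higher (red) and lower (blue) after cold in each class of mean HK104 level (CPM), as a percentage of the class. The right panel gives the median log2 fold change of cold over control with the interquartile range over genes; classes below 10 CPM have medians of -0.62 and -0.57.

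The most abundant genes split into a group that fell strongly and a group with little change. In controls WBGene00024796 was the gene with the most counts, with 7305 and 6397 CPM in the cold libraries, against 22790 and 20690 CPM in the controls. Its log2 fold change was -1.67 ± 0.27 (SE; FDR = 0.00157, edgeR), and after cold it held 0.759% and 0.610% of all counts, against 2.22% and 2.05% in controls. WBGene00035047 had 5977 and 4808 CPM after cold and 20710 and 18840 CPM in controls, and WBGene00034777 had 2594 and 2134 CPM after cold and 12650 and 11000 CPM in controls. WBGene00034800 had 1362 and 1305 CPM after cold, against 7247 and 6673 CPM in controls (log2 fold change -2.38 ± 0.25, SE; FDR = 0.000136, edgeR). These 4 genes and WBGene00000365 (1707 and 1229 CPM after cold, 5413 and 4984 CPM in controls) were called lower and were among the 10 genes with the most counts in controls.

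The other 5 of those 10 genes were not called. WBGene00036411 had 8180 and 12510 CPM in the cold libraries, against 10630 and 10310 CPM in the controls, and was the gene with the most counts after cold. Its log2 fold change was -0.02 ± 0.31 (SE; FDR = 0.983, edgeR). WBGene00036738 had 3841 and 5187 CPM after cold and 4519 and 4409 CPM in controls, and WBGene00023842 had 3756 and 4878 CPM after cold and 4499 and 4155 CPM in controls. At each of these 3 genes the cold values enclosed the control values, with cold 2 the higher. Of the 131 genes of 1000 CPM and above, 120 had an estimated change of at most 1.5-fold, and the only one called higher was WBGene00030704. It had 1846 and 1952 CPM after cold and 1110 and 1089 CPM in controls (log2 fold change 0.79 ± 0.23, SE; FDR = 0.0351, edgeR). This call did not pass with upper-quartile scaling (FDR = 0.0547) or with the HK104 libraries alone (FDR = 0.0527). It was also lost when control 1 (FDR = 0.219), control 2 (FDR = 0.263) or cold 2 (FDR = 0.0861) was left out, and without AF16 control 1 (FDR = 0.0913) or AF16 control 2 (FDR = 0.0898).

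The genes with the most counts took a smaller share of the total after cold. Within each library, its 10 genes with the most counts held 4.51% (cold 1) and 5.0% (cold 2) of the total after cold, against 9.36% and 8.78% in the controls. The 10 genes with the most counts in controls took 4.24% and 4.48% after cold, and 7 of them were also among the 10 with the most counts after cold. The number of genes that together held 50% of the counts was 803 and 660 after cold and 581 and 574 in controls. Both cold values lay above both control values, and cold 2 was nearer to the controls than to cold 1. The smallest 2-sided p of an exact permutation test of 2 against 2 libraries is 0.333, and none was run. Further down the ranks the order turned round, and the 5012 genes with the most counts held 94.45% and 95.81% after cold, against 93.99% and 93.96% in controls. Genes below 1 CPM held a mean of 0.0871% of the counts after cold and 0.138% in controls, and genes of 1 to 10 CPM 1.30% and 1.91%. Called lower genes held 4.90% and 3.61% of the counts after cold and 14.9% and 14.5% in controls. Called higher genes held 4.77% and 3.59% after cold and 1.93% and 1.91% in controls, so their gain was smaller than the loss of the lower genes. Genes without a call held 90.3% and 92.8% after cold and 83.1% and 83.6% in controls. These are shares of a fixed total, so a loss in some genes raises the share of others.

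**Figure D4:**
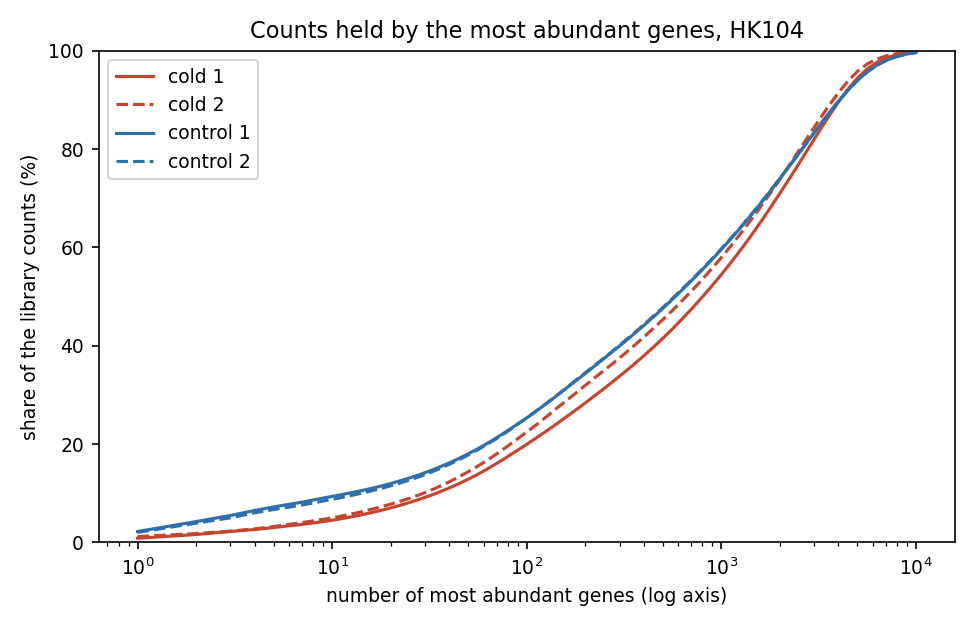
Share of each HK104 library's counts (%) held by its most abundant genes, against the number of genes (log axis); red lines are cold libraries and blue lines controls, solid for replicate 1 and dashed for replicate 2. At 10 genes the cold libraries stand at 4.51% and 5.0% and the controls at 9.36% and 8.78%, and at 5012 genes both cold lines lie above both control lines.

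The cold libraries agreed less with each other than the controls did. Measured in log2 CPM with a prior count of 2, replicates of the same gene differed by a median of 0.367 after cold and 0.146 in controls over all tested genes. A difference of at least 2-fold between replicates was found for 1678 genes (12.4%) after cold and for 655 genes (4.85%) in controls. The excess was present in every abundance class. At 100 to 1000 CPM, where counting error is small, the medians were 0.233 after cold and 0.0721 in controls, and at 1000 CPM and above 0.459 and 0.0769. The description of cold 1 carries a suffix that the other HK104 libraries lack and whose meaning is not stated, and its part in this spread was not tested.

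The difference between the cold libraries had a direction. Over all tested genes cold 1 lay above cold 2 at 57.8%, and over genes without a call at 53.1%. Among the higher genes cold 1 lay above cold 2 at 496 of 613 (80.9%), and the median response was 1.40 in cold 1 and 0.99 in cold 2, each against the mean of the controls. Among the lower genes cold 1 also lay above cold 2, at 1649 of 2239 (73.6%), with median responses of -1.87 and -2.24. Rises were therefore larger in cold 1 and falls larger in cold 2, which was so under all 4 scalings. Among abundant genes the order was the opposite. At 100 to 1000 CPM cold 1 lay above cold 2 at 33.1% of 2411 genes, with a median difference of -0.13 (-0.01 with total counts only). At 1000 CPM and above cold 2 was higher than cold 1 at 107 of 131 genes, with a median difference of -0.43 between cold 1 and cold 2. Between the 2 AF16 cold libraries a similar difference was seen. Across the 7045 genes of at least 10 CPM, which share the 4 cold libraries and are not independent replicates, the cold 1 minus cold 2 differences of HK104 and AF16 correlated with r = 0.549, and the first cold library of AF16 carries the same suffix. Over all 13503 genes r was 0.341 for the cold libraries and 0.145 for the control libraries.

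Both cold libraries lay on the same side of both controls at 65.9% of all tested genes. They did so at all 2852 called genes, which the test largely requires of a call, so this count says nothing more about replicate agreement. Every one of the 4 cold and control pairings differed by at least 2-fold in the same direction at 2231 of the 13503 tested genes. These were 247 of the higher genes, 1840 of the lower genes and 144 of the 10651 genes without a call. The calls come from the same libraries, so these counts follow in part from them. The controls and the cold libraries overlapped more often among the most abundant genes, where 28.2% of the class of 1000 CPM and above did not overlap.

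**Figure D5:**
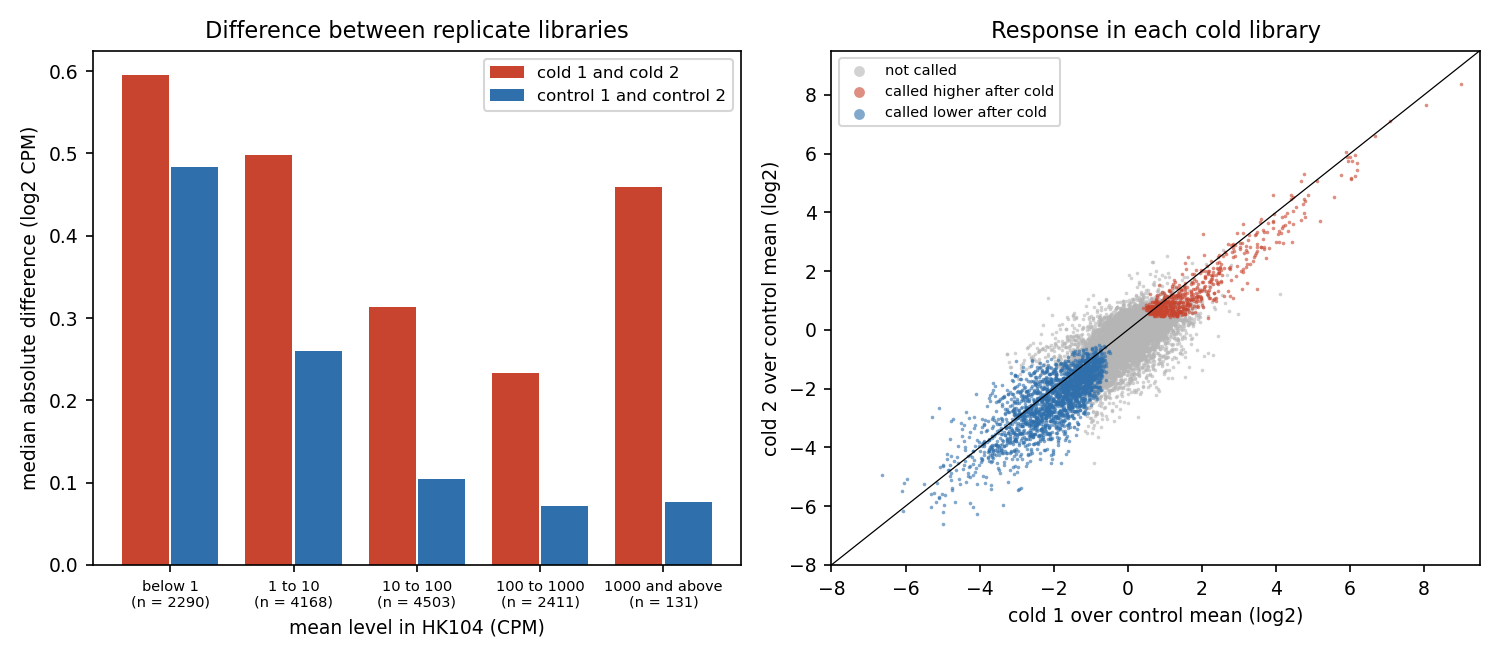
The left panel gives the median absolute difference (log2 CPM) between the 2 cold libraries (red) and between the 2 controls (blue) in each class of mean HK104 level. The right panel sets the log2 response of each gene in cold 1 against that in cold 2, both over the mean of the controls; red genes were called higher and blue genes lower, and both groups lie mostly below the line of equality.

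The genes that differed most between the cold libraries, at a mean of at least 10 CPM after cold, were all higher in cold 1 and none was called. WBGene00037547 had 53.2 CPM in cold 1 and 5.81 CPM in cold 2, against 14.5 and 7.76 CPM in the controls. WBGene00033177 had 55.3 and 9.37 CPM in the cold libraries and 16.6 and 13.7 CPM in the controls, and WBGene00033728 had 107 and 21.7 CPM in the cold libraries and 44.4 and 30.5 CPM in the controls. At these 3 genes the estimated log2 fold changes of 1.40, 1.10 and 0.79 turned to -1.01, -0.76 and -0.86 without cold 1. They also varied between AF16 controls, where WBGene00033728 had 16.3 and 98.0 CPM. WBGene00028392 had 26.7 and 4.88 CPM after cold, against 4.71 and 2.33 CPM in controls (FDR = 0.0654, edgeR). Its log2 fold change of 2.17 was 0.40 without cold 1 and 2.92 without cold 2 (FDR = 0.0143), and it also passed with no filter (FDR = 0.00845), without AF16 control 1 (FDR = 0.0368) and without AF16 control 2 (FDR = 0.0386). WBGene00270725 had 278 and 51 counts after cold, against 509 and 536 counts in controls (FDR = 0.0616, edgeR), with a log2 fold change of -1.57. This was -3.25 without cold 1 (FDR = 0.00103) and -0.84 without cold 2 (FDR = 0.0767). The gene also passed with upper-quartile scaling (FDR = 0.0491), with no filter (FDR = 0.0109) and in the Wald test of DESeq2 (FDR = 0.00745).

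A difference from the AF16 response was detected for few genes at this replication. The test of the difference between the cold responses, in the same fit, was passed by 67 of the tested genes (0.496%), of which 49 were called in HK104. These were 40 of the 613 higher genes (6.53%) and 9 of the 2239 lower genes (0.402%). The test uses the same HK104 libraries as the calls, so these counts are not independent of them. Of the 40 higher genes, 39 had a response that was larger in HK104 than in AF16. The median log2 fold change in AF16 was 0.61 over the genes called higher in HK104 and -2.01 over those called lower, beside 1.22 and -2.23 in HK104 itself. These genes were chosen by their HK104 calls, which by itself favours larger medians in HK104, so the medians do not compare the strains. In AF16 itself 376 genes (2.78% of those tested) were called higher after cold and 2711 (20.1%) lower. Genes called higher in both strains numbered 216, which were 35.2% of the HK104 and 57.4% of the AF16 rises. Genes called lower in both numbered 1775, which were 79.3% of the HK104 and 65.5% of the AF16 falls. Of the HK104 rises 23 were called lower in AF16, and of the HK104 falls 1 was called higher there. Among HK104 rises of at least 2-fold by estimate 132 of 381 were also called higher in AF16, and among those of at least 32-fold 28 of 37. For falls of the same sizes 1714 of 2144 and 96 of 120 were also called lower in AF16. The count of 67 depended on single libraries and on the scaling, and was 0 with total counts only or without cold 1, 1 without control 2 or AF16 cold 2, 11 without control 1, 13 without AF16 control 1 and 6 without AF16 control 2. With total counts only, 787 of the 13503 tested genes had an unadjusted p below 0.05 (edgeR). A share of 0.05 would be reached if no gene differed, so this number is not a count of differences. The Wald test of DESeq2 on all 8 libraries called 167.

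Among the 20 genes with the largest rises and falls, WBGene00042194 alone passed the test of the strain difference. Its AF16 values were 106 and 93.5 CPM after cold and 2.03 and 2.58 CPM in AF16 controls, so it was called higher in both strains. The response was larger in HK104 by 2.47 ± 0.36 on the log2 scale (SE; FDR = 0.0228, edgeR). In the leave-one-out fits the difference ranged from 2.08 to 2.67, with an FDR between 0.0238 and 0.176, and it did not pass without cold 1 (FDR = 0.176), control 1 (FDR = 0.0802), control 2 (FDR = 0.145), AF16 cold 2 (FDR = 0.118), AF16 control 1 (FDR = 0.0662) or AF16 control 2 (FDR = 0.123). It did not pass with total counts only either (difference 2.40, FDR = 0.0837).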

How the data were processed

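Raw counts per WormBase identifier were deposited by the authors for the 8 libraries of both strains. The submitters' processing notes name cutadapt, HISAT2 2.2.0, HTSeq 0.11.1 and edgeR, without role. Genome build, annotation and strand setting are not given in the sources used here, so near-identical or overlapping genes may share reads. Libraries were grouped by title and fitted together in edgeR 4.0.16 (R 4.3.3, limma 3.58.1), one coefficient per group, with filterByExpr (minimum count of 10), TMM scaling and the quasi-likelihood F test. The procedure was tested on simulated counts. It called 47.7% of 65 genes changed 2-fold, 89.6% of 67 genes changed 4-fold and 98.5% of 68 genes changed 8-fold, with 3 false calls. The test of the strain difference gave 5 calls among the unchanged genes. Genes of low counts were not among those changed, so recovery there was not tested. Far fewer genes were changed than were called in the data. The simulation gave cold and control groups the same spread, whereas the cold libraries here differed more than the controls. The standard error (SE) is the absolute log2 fold change divided by the square root of F.

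The authors' deposited table for HK104 holds a log2 fold change, an F score and a p-value per gene. Its log2 values differed from those computed here by at most 1.87e-09, and 2832 of its genes passed after Benjamini-Hochberg adjustment, 2819 of them called here.

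Genes were named by a rule: the 10 largest rises and falls among non-overlapping calls with a group mean of at least 10 CPM, the 5 most abundant per group, the 5 smallest p-values, the smallest p-value per direction in each class from 10 CPM, the 5 largest cold replicate differences from 10 CPM, and strain differences among the first. WBGene00000365 and WBGene00027798 were named after their values were seen. The comparison, lists and rule were chosen with earlier results of these data known. The planned lists of gene families and tissue markers need gene names and were not run. Alternatives covered scaling (DESeq2 1.42.0 size factors, upper quartile, total counts), filter, test, libraries, a replicate block and classes. The scalings of the cold library difference were added after seeing the data. Hybrid libraries were not used here.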

Additional observations from a re-analysis of the deposited data

Results flagged for a closer look

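The cold responses of HK104 and AF16 differed, by the test of the difference itself (edgeR, FDR below 0.05), at 67 of 13503 genes. At WBGene00042194 the log2 fold change was larger in HK104 than in AF16 by 2.47 ± 0.36 (SE; FDR = 0.0228, edgeR), with 909 and 684 CPM in HK104 cold libraries against 106 and 93.5 CPM in AF16 cold libraries. Both results depended on single libraries and on the scaling. With total counts only the count was 0, and the Wald test of DESeq2 gave 167. The difference at WBGene00042194 was then 2.40 with total counts only (FDR = 0.0837, edgeR). It passed with DESeq2 size factors (FDR = 0.036, edgeR) and upper-quartile scaling (FDR = 0.0481, edgeR). No cause of either difference was tested.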

How the results depend on the processing

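A single count stood for 0.0611 and 0.066 CPM in the cold libraries and 0.0581 and 0.0584 CPM in the controls, and the 273 genes with at most 3 counts in each library are too shallow for a fold change. Leaving out 1 library gave 1676 to 3988 called genes, 191 to 1372 higher and 1415 to 2616 lower. Over the 4 HK104 libraries, the calls of at least 2-fold were 184 to 514 higher and 1400 to 1803 lower, and those beyond 2-fold by glmTreat 98 to 154 higher and 605 to 980 lower. The median log2 fold change over all genes ranged from -0.1 to 0.04, and by class from the lowest up it ranged from -1.05 to -0.46, -0.87 to -0.45, 0.11 to 0.2, 0.1 to 0.21 and -0.25 to 0.12. The share called ranged from 5.33% to 7%, 21.6% to 25.6%, 12.1% to 17.2%, 3.53% to 5.72% and 4.58% to 6.11% in the same order. Genes with a strain difference numbered 0 to 93.

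Upper-quartile scaling gave 336 higher genes, a median of -0.16 over all genes, 0.01 at 10 to 100 CPM and 0.01 at 100 to 1000 CPM, and 24 strain differences. The median was 0.03 with DESeq2 size factors. Total counts gave 0 strain differences by edgeR, with 787 of 13503 genes at an unadjusted p below 0.05. A share of 0.05 would be reached if no gene differed. The Wald test of DESeq2 gave 167. Testing only genes of at least 10 CPM, which leaves fewer genes, gave 870 called genes, 201 higher and 669 lower. With classes from controls alone the median below 1 CPM was -0.18, and 11.3% were called at 1000 CPM and above. With classes from cold libraries alone these were -1.21 and 29.7% called below 1 CPM. The 50 most abundant genes held a mean of 13.6% of counts after cold and 17.9% in controls, the 100 most abundant 21.2% and 25.3%, and the 10 genes of the controls 4.36% after cold. The replicate difference after cold was 0.334 with a prior count of 5, and among genes of at least 10 CPM it was 0.282 after cold and 0.0903 in controls. The cause of these shifts was not tested.

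Groups share the replicate numbers 1 and 2, and no label says what a number marks. Differences between replicate 1 and 2 correlated across genes with r = 0.14 between HK104 cold and control, 0.233 between AF16 cold and control, 0.341 between the cold libraries of HK104 and AF16 and 0.145 between their controls. All 4 were above 0, and with only 2 numbers they leave a pairing undecided. The replicate block gave 3395 called genes (841 higher) and 144 strain differences, and 3873 called genes with the HK104 libraries alone. WBGene00028392 and WBGene00270725 passed with the block (FDR = 0.0402 and 0.0156, edgeR). Of 640 recomputed values of the named genes, 620 kept their side of the threshold and, where called, their sign. The 8 lost calls were all at WBGene00030704, and the 12 gained ones at WBGene00028392 and WBGene00270725. Genes without a call changed sign in 20 values.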
